A study of Homo sapiens with 54 samples.

Results

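The regions occupied by POLR3G in T47D cells were compared between vehicle and the progestin R5020. Every region of the 2 deposited POLR3G peak lists on chromosomes 1 to 22 and X was used, 58423 from vehicle cells and 46874 from R5020 cells. These 105297 regions are part of 518471 in the 16 lists of the series. A region was called present in the other treatment when the 2 lists shared at least 1 bp there. T47D is an established human breast cancer line that carries estrogen and progesterone receptors (PR). The cells received ethanol or R5020, a synthetic progestin, for 1 h, and the dose is not given in the labels. Chromatin immunoprecipitation with 1 POLR3G antibody was followed by sequencing of 3 libraries per treatment, and 1 list per treatment was used. How the 3 libraries were combined into it is not given in the sources used here, nor do the labels say whether they came from separate cultures. Of the 3 libraries titled R5020, 1 (replicate 1) carries a treatment tag of ethanol, so the list called R5020 here may hold 1 vehicle library. The list cannot be remade without that library, and its part in the values below was not tested.

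RNA polymerase III transcribes short noncoding RNAs, among them transfer RNAs (tRNAs), the 7SK RNA, the signal recognition particle RNA, vault RNAs and Y RNAs. POLR3G and its paralog POLR3GL are alternative versions of the same subunit, held in a small subcomplex that works in initiation together with POLR3C and POLR3F. POLR3A is the largest catalytic subunit, BRF1 an initiation factor and MAF1 a repressor of the enzyme. PR is a nuclear receptor that binds DNA as a dimer once it holds a progestin, and acetylated lysine 27 of histone H3 (H3K27Ac) marks active promoters and enhancers.

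POLR3G regions were looked up at fixed marker genes of luminal breast cells and of other cell types. A POLR3G region lay within 1 kb of an end of 11 of 12 luminal breast genes in both treatments, GATA3, FOXA1 and PGR among them. Of all 19817 protein-coding genes 38.6% had a region in both treatments, 48.1% with vehicle and 41.8% with R5020. ESR1 had none. None of 8 basal or mesenchymal genes had a region in either treatment. Of 6 genes of other lineages, CD3E had 1 with vehicle. The files give each region a fold (signal over the caller's background) and a -log10 q, which are the authors' values and rank regions within a list. Where folds of both lists are printed, they are set side by side and are not a measured change. Depth is not given in the lists. With 1 list per treatment there is no replicate error and no test, and the intervals below reflect only how many regions or genes were counted. Adjacent regions share signal and are not independent.

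The R5020 list was shorter and its regions were narrower. The log2 ratio of region numbers, R5020 over vehicle, was -0.32 (95% counting interval -0.34 to -0.30). The sequence under regions fell from 35.3 Mb with vehicle to 23.5 Mb with R5020, and the median width from 376 to 321 bp. The narrowest region was also different, 198 bp with vehicle and 176 bp with R5020. Whether both lists were called with the same width settings is not given, and the part of calling in these widths was not tested. Median folds were 2.80 with vehicle and 2.84 with R5020. Regions of 5000 bp or more numbered 328 with vehicle and 145 with R5020. In the other subunits the lists changed length differently: POLR3GL went from 1104 to 603 regions, POLR3C from 666 to 693 and POLR3A from 688 to 1019.

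Strong POLR3G regions were in both lists, and most weak ones were in 1 list. Of all vehicle regions, 22899 (39.2%) were also present with R5020, and of all R5020 regions 26690 (56.9%) were present with vehicle. These shares depended on the overlap rule, with 14.1% and 17.6% under a stricter rule, where an overlap counted only if it covered at least 50% of each region, and 61.8% and 78.4% when a region within 1 kb counted. The other regions were 35524 found with vehicle only and 20184 found with R5020 only. All of the top 100 regions by -log10 q, in either list, were in the other list too. Of the top 1000, 99.3% of the vehicle regions and 98.4% of the R5020 regions were shared. In the lowest decile by -log10 q the shared part was 21.1% for vehicle and 40.4% for R5020. In the highest decile it was 88.9% and 91.9%. Unshared regions were narrower, with median widths of 314 bp (vehicle only) and 260 bp (R5020 only) against 606 and 417 bp for shared ones. Their highest fold was 5.50 with vehicle and 5.41 with R5020, whereas shared regions reached 14.2 and 15.8. Many unshared regions had a neighbour in the other list: 37.2% of vehicle-only and 49.8% of R5020-only regions lay within 1 kb of one. Of the shared vehicle regions 4776 (20.9%) met several R5020 regions, and of the shared R5020 regions 2747 (10.3%) met several vehicle regions.

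**Figure D1:**
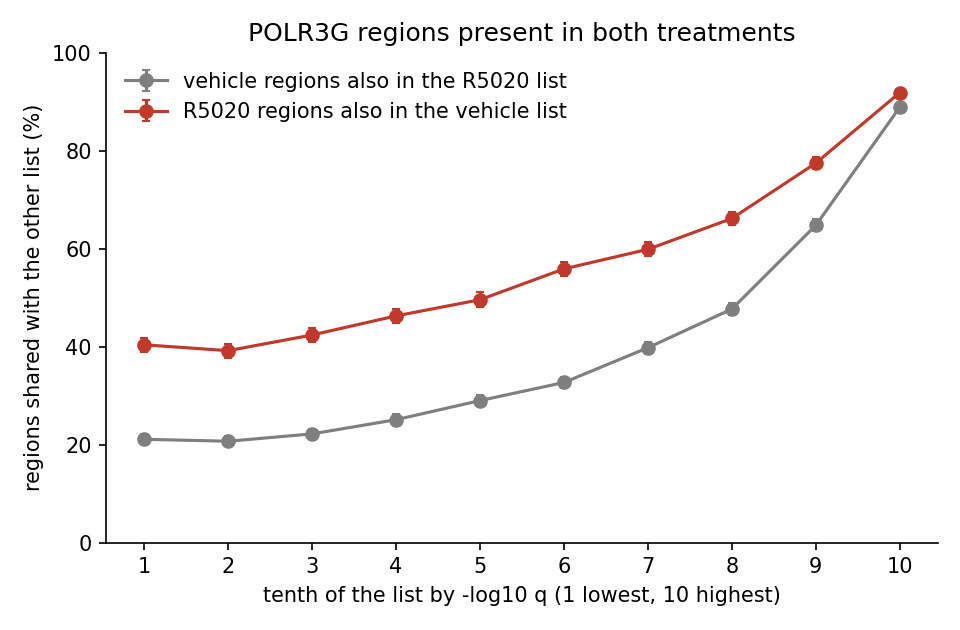
Share of POLR3G regions of each list that overlapped a region of the other list (y axis, %), by decile of the list ranked on the authors' -log10 q (x axis). Points are shares and bars 95% Wilson intervals. Sharing runs from 21.1% (vehicle) and 40.4% (R5020) in the lowest decile to 88.9% and 91.9% in the highest.

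The lists of the other subunits were compared in the same way. With the same 1 bp rule, 83.3% of vehicle POLR3A regions (95% Wilson interval 80.3 to 85.9), 63.5% of POLR3C regions and 24.1% of POLR3GL regions (21.7 to 26.7) were also present with R5020. POLR3G, at 39.2%, lay between its partner POLR3C and its paralog POLR3GL. These lists differ in length, with 58423 vehicle regions for POLR3G, 688 for POLR3A, 666 for POLR3C and 1104 for POLR3GL. Of the top 1000 vehicle POLR3G regions 99.3% were shared, so its place in this order depends on how many regions are taken. In the other direction, 56.3% of R5020 POLR3A regions, 61.8% of POLR3C regions and 42.8% of POLR3GL regions were present with vehicle, beside 56.9% for POLR3G.

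Most genes transcribed by RNA polymerase III that had POLR3G with vehicle also had it with R5020. Of 421 nuclear tRNA genes, 216 (51.3%) had a region within 200 bp with vehicle, 203 (48.2%) with R5020 and 200 (47.5%) with both. Another 202 (48.0%) had none in either treatment, and 142 of these had POLR3A with vehicle. Vehicle alone held 16 and R5020 alone 3 (0.713%). For comparison, of 1911 miRNA genes 16.3% had a region with vehicle and 13.0% with R5020, 10.3% in both, 6.07% with vehicle alone and 2.72% with R5020 alone. Of 1190 snoRNA genes 14.0% had a region with vehicle and 13.3% with R5020, 11.4% in both, 2.61% with vehicle alone and 1.85% with R5020 alone. At the 200 tRNA genes of both lists the median fold was 7.70 with vehicle and 8.20 with R5020, well above the medians of the whole lists. Of the POLR3G regions at tRNA genes, 93.0% of those with vehicle and 97.4% of those with R5020 were in the other list.

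The highest region of both lists lay over TRM-CAT1-1, a methionine tRNA gene on chromosome 8 inside TBC1D31. Its fold was 11.9 with vehicle and 11.5 with R5020. The vehicle list then had chr10:67763599-67765818 over the serine tRNA gene TRS-TGA1-1, with a fold of 12.1, where the R5020 fold was 11.6. The R5020 list then had chr15:40592608-40594612 over TRS-GCT4-2, another serine tRNA gene, inside KNL1. It reached the highest fold of either list, 15.8, and the vehicle fold there was 13.3. The third region of the vehicle list, chr12:98502547-98505209 over TRD-GTC1-1 (aspartate) and TRW-CCA4-1 (tryptophan), had a fold of 13.8 with vehicle and 6.71 with R5020. The pileups at its summit, recovered from fold and p-value (see Other observations), were closer, at 109 and 87. The third of the R5020 list, chr1:146034560-146040452, covered 4 tRNA genes and had folds of 12.5 with vehicle and 13.4 with R5020. The top 3 regions of both lists were thus over tRNA genes.

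The tRNA genes with POLR3G in 1 treatment all had folds below the median of the shared tRNA genes. With R5020 alone there were TRV-CAC8-1 (a valine tRNA; fold 5.41), TRT-AGT2-2 (threonine; 3.08) and TRS-GCT2-1 (serine; 2.65). Among the 16 of vehicle alone, the 3 of highest -log10 q were TRG-CCC5-1 (glycine; fold 2.60), TRR-CCT3-1 (arginine; 3.99) and TRA-CGC2-1 (alanine; 3.73), and no amino acid had more than 2 of them. All 19 had POLR3A in both treatments, and 1 of the 16 had H3K27Ac with vehicle. Acetylation went with presence: with vehicle 93.6% of tRNA genes with H3K27Ac had POLR3G and 21.8% of those without. With R5020 the shares were 98.1% and 17.9%. The tRNA genes with POLR3A but no H3K27Ac had POLR3G in 28.4% (vehicle) and 22.9% (R5020).

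The other polymerase III genes did not change in presence. Of 13, 11 had POLR3G in both treatments, and BCYRN1 and RPPH1 in neither. RN7SK, the 7SK RNA that restrains polymerase II elongation, had a fold of 9.96 with vehicle and 5.72 with R5020. RN7SL1, the RNA of the signal recognition particle, had 8.77 and 8.54. The vault RNA gene VTRNA1-2 had 10.3 and 11.9. The Y RNA gene RNY1 had 4.66 and 7.01, and RNY4 had 3.19 and 5.04. The pileups at the summit, recovered as told under Other observations, were 75 and 79 for RN7SK, so its lower R5020 fold stood without a lower pileup. They were 78 and 77 for RN7SL1 and 84 and 89 for VTRNA1-2. RNY1 had 34 and 49, and RNY4 had 23 and 35. These folds and pileups are set side by side and no change between lists was computed from them.

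Most POLR3G regions were elsewhere, many at protein-coding genes, and there the R5020 list had fewer. Of 19817 protein-coding genes, 9539 (48.1%) had a region within 1 kb of an end with vehicle and 8280 (41.8%) with R5020. Both treatments shared 7649 genes (38.6%). Vehicle alone held 1890 (9.54%) and R5020 alone 631 (3.18%). Among regions over a protein-coding start site, 77.8% of vehicle regions and 90.9% of R5020 regions were shared, whereas away from start sites and tRNA genes the shares were 34.9% and 53.2%.

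Most genes of the translation apparatus on the fixed lists had POLR3G in both treatments, beside 38.6% of all protein-coding genes. Of 78 cytosolic ribosomal protein genes, 71 did, with RPL31 and RPL21 found with vehicle alone and RPS6 with R5020 alone. Of 20 cytosolic aminoacyl-tRNA synthetase genes, which charge tRNAs, 18 did and FARSB was found with vehicle alone. Of 30 genes for the polymerase III machinery 24 did. SNAPC3, a subunit of the complex that recognises snRNA promoters, had a region with vehicle alone (fold 3.19), as did POLR1D, a subunit shared by polymerases I and III (3.06). GTF3C6, a subunit of TFIIIC, had one with R5020 alone (3.36). The POLR3G gene itself had regions in both treatments (folds 3.88 and 4.34), as did POLR3E (11.4 and 13.7) and MAF1 (4.13 and 3.86).

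Promoter sequences were available for 22011 start sites of protein-coding genes, as windows of 250 bases before to 50 after the site. A POLR3G region overlapped 6224 windows (28.3%) in both treatments. In 2440 windows (11.1%) the region was of the vehicle list alone, and in 804 (3.65%) of the R5020 list alone. Windows with POLR3G in both treatments were richer in G and C (median 66.7%) than those with none (57.7%). Vehicle-alone windows had 66.0% and R5020-alone windows 63.3%. The letters GGGCGGGG, an SP-type motif, stood on either strand in 43.2% of windows with POLR3G in both treatments, 40.7% of vehicle-alone, 34.1% of R5020-alone and 29.6% of all windows. CCGGAAG, an ETS-type motif, stood in 21.7%, 17.7%, 17.7% and 12.7%. ACANNNTGT, the core of a progesterone response element, stood in 1.78%, 2.54%, 2.74% and 3.98%. A longer form of the element, which contains the same letters, was in 0.291% of all windows and in 1 of the R5020-alone windows. GTTCNANNC, the B box of tRNA genes, stood in 6.75%, 6.43%, 8.21% and 6.95%, so windows with POLR3G held it about as often as all windows. CACGTG, the E box, stood in 10.6%, 9.59%, 11.7% and 8.32%. The NRF1-type motif stood in 2.02%, 2.54%, 2.74% and 1.49%, and TGTTTAC (forkhead) in 1.99%, 1.89%, 2.74% and 2.86%.

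The 6 promoters are examples of the 3 kinds of site and do not stand for all promoters of a kind. Each is the 250 bases before a start site, read 5′ to 3′ on the gene's strand from RefSeq (GRCh38.p14), with matches to any of the motifs above in capitals. FKBP5 was chosen as a progestin-responsive gene with POLR3G in both treatments, and SNAPC3 and GTF3C6 as genes of the polymerase III system with POLR3G in 1 treatment. RAD9A, NET1 and MT2A were picked after their values were seen, from the windows with the highest -log10 q of their kind and no region of the other list within 1 kb.
FKBP5, chr6:35728584-35728833, minus strand: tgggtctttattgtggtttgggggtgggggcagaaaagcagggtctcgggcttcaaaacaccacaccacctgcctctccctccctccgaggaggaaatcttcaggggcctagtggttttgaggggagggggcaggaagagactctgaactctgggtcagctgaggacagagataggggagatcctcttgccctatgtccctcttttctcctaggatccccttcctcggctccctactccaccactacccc
SNAPC3, chr9:15422626-15422875, plus strand: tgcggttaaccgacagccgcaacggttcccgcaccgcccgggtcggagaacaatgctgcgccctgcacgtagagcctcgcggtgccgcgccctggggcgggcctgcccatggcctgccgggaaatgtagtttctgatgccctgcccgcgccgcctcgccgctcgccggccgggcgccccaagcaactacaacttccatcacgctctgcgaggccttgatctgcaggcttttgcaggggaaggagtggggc
GTF3C6, chr6:110958456-110958705, plus strand: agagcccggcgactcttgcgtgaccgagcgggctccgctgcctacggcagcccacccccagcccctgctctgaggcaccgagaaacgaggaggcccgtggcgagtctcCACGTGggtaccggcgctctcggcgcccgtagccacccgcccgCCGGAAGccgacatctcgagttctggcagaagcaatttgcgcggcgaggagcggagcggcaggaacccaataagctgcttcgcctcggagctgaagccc
RAD9A, chr11:67391736-67391985, plus strand: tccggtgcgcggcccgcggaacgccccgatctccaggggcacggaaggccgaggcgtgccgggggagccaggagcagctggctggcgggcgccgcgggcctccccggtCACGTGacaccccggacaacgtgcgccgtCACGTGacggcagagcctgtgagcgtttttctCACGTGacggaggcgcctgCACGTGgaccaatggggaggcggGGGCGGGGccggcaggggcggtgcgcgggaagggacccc
NET1, chr10:5446301-5446550, plus strand: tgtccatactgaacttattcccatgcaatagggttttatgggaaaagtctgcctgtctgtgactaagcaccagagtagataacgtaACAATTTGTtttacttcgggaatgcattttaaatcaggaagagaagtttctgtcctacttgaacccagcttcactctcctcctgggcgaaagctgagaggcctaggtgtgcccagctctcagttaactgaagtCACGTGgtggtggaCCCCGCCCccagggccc
MT2A, chr16:56608334-56608583, plus strand: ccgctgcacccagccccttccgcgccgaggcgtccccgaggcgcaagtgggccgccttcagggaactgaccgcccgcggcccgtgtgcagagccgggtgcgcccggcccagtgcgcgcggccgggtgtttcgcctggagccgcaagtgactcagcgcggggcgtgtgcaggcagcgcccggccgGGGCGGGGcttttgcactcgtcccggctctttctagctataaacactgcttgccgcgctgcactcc
The FKBP5 promoter held no match. The region over it had a fold of 3.64 with vehicle and 4.44 with R5020. The promoters of FAM228B and SF3B6, not printed here, also had POLR3G in both treatments (vehicle fold 14.2) and held SP-type matches. RAD9A, a DNA damage checkpoint gene, had a vehicle region with a fold of 4.96, and its promoter holds 4 E boxes. NET1, an exchange factor for RhoA, had an R5020 region with a fold of 4.03, and the only progesterone response core among the 6, at -164 from the start site. MT2A, a metallothionein gene, had an R5020 region with a fold of 4.62 and 1 SP-type match at -66. Overlap with the other antibodies was counted for the whole POLR3G region, which can reach beyond the printed bases. The regions over NET1 and MT2A (R5020 alone) and over RAD9A and SNAPC3 (vehicle alone) all overlapped PR and Maf1 of R5020 cells. They also overlapped H3K27Ac of both treatments, so these lists did not set these few promoters apart. The region over PHLPP1, another vehicle-alone promoter, overlapped PR and H3K27Ac of both treatments but no Maf1 region. The region at GTF3C6 overlapped H3K27Ac of both treatments and no PR region. It began at chr6:110958701, so it covered only the last few printed bases, and both capitalised matches lie outside it.

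POLR3G regions of both lists carried acetylation more often than regions of 1 list. In the vehicle list, H3K27Ac of vehicle was present at 71.2% of shared and 42.2% of vehicle-only regions. In the R5020 list, H3K27Ac of R5020 was present at 72.4% of shared and 46.7% of R5020-only regions. Pooled over the lists, the difference was 28.0 percentage points (95% Newcombe interval 27.4 to 28.5), and 8.10 points under the 50% rule, applied to the overlap with H3K27Ac as well. Shared regions were also wider, which gives more room for an overlap. By the summit position alone, an alternative chosen after seeing the data, the difference was 23.6 points. Vehicle regions acetylated in both treatments were shared in 55.0% of cases. Those acetylated with vehicle alone were shared in 27.6%, with R5020 alone in 35.1% and in neither in 22.3%. Among R5020 regions the middle states stood in the other order, with 71.1% shared when acetylated in both treatments, 55.3% with vehicle alone, 42.9% with R5020 alone and 38.8% in neither. Shared regions also lay within 1 kb of a protein-coding gene end more often, at 40.7% against 18.0% in the vehicle list and 40.1% against 15.8% in the R5020 list.

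**Figure D2:**
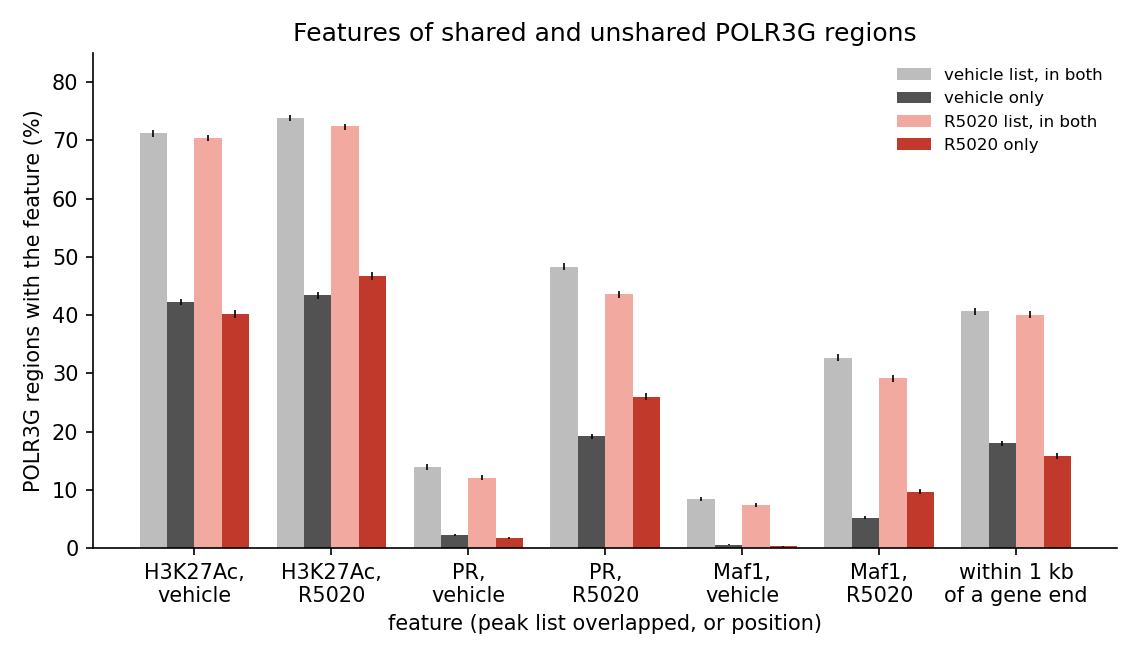
Share of POLR3G regions with each feature (y axis, %), for shared and unshared regions of both lists, with bars for 95% Wilson intervals. Shared regions are above unshared ones for every feature shown. R5020-only regions (26.0%) are above vehicle-only regions (19.2%) for PR of R5020 cells.

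R5020-only POLR3G regions overlapped PR more often than vehicle-only regions did. PR of R5020 cells was present at 26.0% of R5020-only regions (5257 of 20184) and 19.2% of vehicle-only regions (6829 of 35524), a difference of 6.82 points (95% Newcombe interval 6.09 to 7.55). Under the 50% rule, applied to the overlap with PR as well, the shares were 8.52% and 7.64% and the difference 0.882 points. The R5020-only regions were the narrower group. Within bands of width the difference was 6.55 points under 300 bp, 10.3 points from 300 bp to under 600 bp and 19.1 points from 600 bp upwards. It was 9.91 points among regions with vehicle H3K27Ac, 14.1 points among those acetylated with R5020 alone and 3.22 points without H3K27Ac. Within 1 kb of a gene end it was 2.52 points (0.528 to 4.53), and farther away 8.02 points. Maf1 of R5020 cells was at 9.65% of R5020-only and 5.25% of vehicle-only regions, and within 1 kb of a gene end at 13.2% and 13.9%. H3K27Ac of R5020 cells was at 46.7% and 43.4%, and H3K27Ac of vehicle cells at 40.2% and 42.2%. For POLR3A of R5020 cells the shares were 0.109% and 0.0929%. Shared regions had it at 1.11% in the vehicle list and 0.974% in the R5020 list. POLR3G regions of every kind, shared or not, thus rarely overlapped a region of the catalytic subunit. The POLR3A lists are far shorter, with 688 regions (vehicle) and 1019 (R5020), which keeps these shares low. At the POLR3A regions themselves, POLR3G of the same treatment was present at 42.3% with vehicle and 28.3% with R5020.

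Seen from the PR regions, POLR3G was more frequent with R5020 at the strongest PR regions and less frequent at the rest. PR was called at 167221 regions with R5020 alone. POLR3G was present at 9.06% of them with vehicle and 7.94% with R5020, with 3.68% found with vehicle alone and 2.56% with R5020 alone. In each of the 9 lower deciles by PR -log10 q the vehicle share was the higher one, for example 7.05% against 5.26% in the fifth. In the top decile the order turned, with 16.2% for vehicle (95% Wilson interval 15.7 to 16.8) and 20.4% for R5020 (19.8 to 21.1). There 1494 PR regions had POLR3G with R5020 alone and 793 with vehicle alone. Among the top 1000 PR regions the shares were 22.0% (19.5 to 24.7) and 41.8% (38.8 to 44.9). Among the top 100 they were 22.0% and 57.0%. The difference at the top 1000 was 19.8 points, and 7.80 points when POLR3G regions needed a -log10 q of at least 5. The top-decile difference of 4.19 points came down to 0.748 points at that threshold. Under the 50% rule these differences were 5.30 and 1.19 points.

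**Figure D3:**
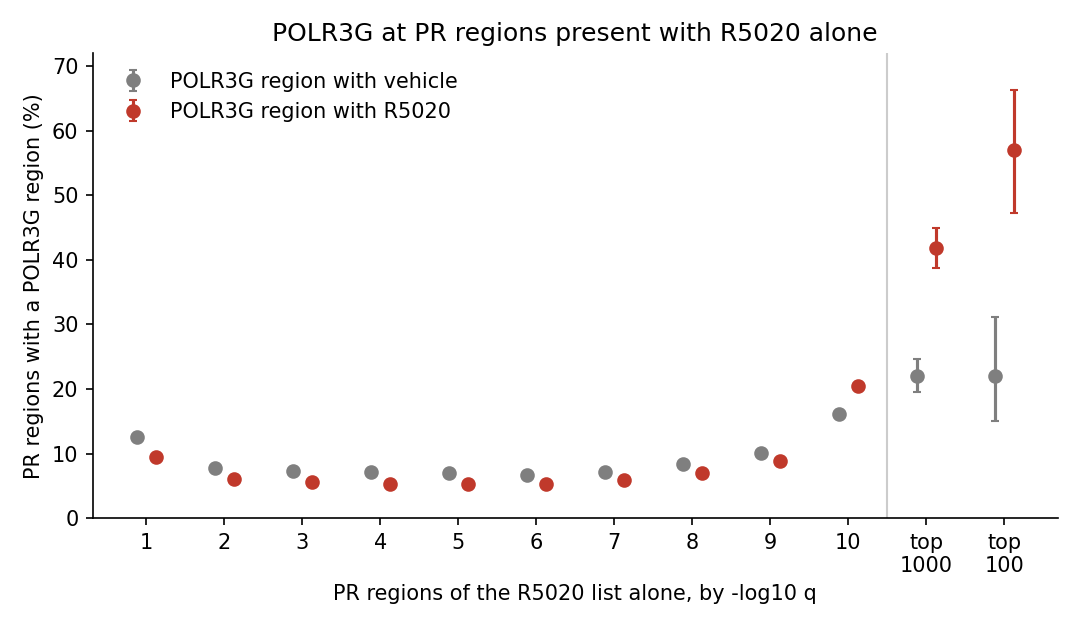
Share of PR regions present with R5020 alone that overlapped a POLR3G region (y axis, %), for the vehicle (grey) and R5020 (red) POLR3G lists, by decile of PR -log10 q and for the top 1000 and top 100 PR regions (x axis). Bars are 95% Wilson intervals. The R5020 share is below the vehicle share in deciles 1 to 9 and above it from the top decile on, reaching 57.0% against 22.0%.

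Other factors moved at the same PR regions. At the top 1000, Maf1 was present at 5 with vehicle and at all 1000 with R5020, H3K27Ac at 71.1% and 94.4%, and Brf1 at 1 and 30 of them. POLR3A was at 3 in both treatments, POLR3C at 1 in both, and POLR3GL at 1 with vehicle and 0 with R5020. The part of acetylation or Maf1 in the POLR3G difference was not tested. The R5020 share was also the higher one within acetylation states of the top decile. Where H3K27Ac was already present with vehicle, POLR3G was at 30.8% (vehicle) and 36.7% (R5020). Where H3K27Ac was called with R5020 alone it was at 5.13% and 11.5%, and without H3K27Ac at 1.45% and 2.20%. In the lower deciles with vehicle H3K27Ac the shares were 33.4% and 26.1%.

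The 17 listed progestin-responsive genes were examined within 10 kb of the gene. They held 74 POLR3G regions with vehicle and 105 with R5020. Of the 17, 7 genes had more regions with R5020, 5 fewer and 5 the same number. Of all protein-coding genes, 16.7% had more and 34.3% fewer. By length under regions, which does not depend on how a broad signal is split, 6 of the 17 had more (13.2% of all genes) and 7 less (47.6% of all genes), and the total went from 40.8 to 46.0 kb. With a -log10 q of at least 5 the regions numbered 20 with vehicle and 22 with R5020, so the excess was among weaker regions.

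ZBTB16, a zinc finger repressor gene strongly induced by steroid hormones, had no POLR3G region with vehicle and 8 with R5020. Genes with POLR3G regions within 10 kb with R5020 alone made up 3.00% of all protein-coding genes. The 8 regions had folds of 2.17 to 3.94. PR of R5020 cells overlapped 6 of them, H3K27Ac of R5020 cells 6 and H3K27Ac of vehicle cells 0. Around the gene, PR regions numbered 2 with vehicle and 23 with R5020, and H3K27Ac regions 3 and 29. PR regions were more numerous with R5020 over the genome too, where 167221 of 173115 had no vehicle PR region.

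FKBP5, a co-chaperone of steroid receptors, had 7 POLR3G regions with vehicle and 16 with R5020, over 5.37 and 10.3 kb. Of its 10 R5020-only regions, 6 overlapped PR, 3 vehicle H3K27Ac and 8 R5020 H3K27Ac. HSD11B2, which inactivates cortisol, had 4 and 13 regions, and BCL6, a transcriptional repressor, 4 and 12. STAT5A, a mediator of prolactin signalling, had 8 and 14, and 1 of its 13 R5020-only regions overlapped PR. CCND1, which encodes cyclin D1, had 19 and 21 and DUSP1, a MAP kinase phosphatase gene, 4 and 5, while the length under regions was smaller with R5020 at both.

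Fewer regions with R5020 were found at CDKN1A, the p21 gene, with 9 and 4, and at the clock gene PER1, with 15 and 11. The highest fold within 10 kb of PER1 was 5.69 with vehicle and 6.73 with R5020. That region lay outside the gene, at chr17:8138567-8139793 with vehicle and chr17:8138205-8139810 with R5020, whereas the span of PER1 begins at 8140472. AREG, which encodes an EGF receptor ligand, EGFR and IRS2 had 1 region each with vehicle and none with R5020. KLF9 had 1 in each treatment, at different positions. SGK1, TNFSF11, TSC22D3 and WNT4 had none in either, although PR regions with R5020 numbered 5, 3, 17 and 4 there.

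**Figure D4:**
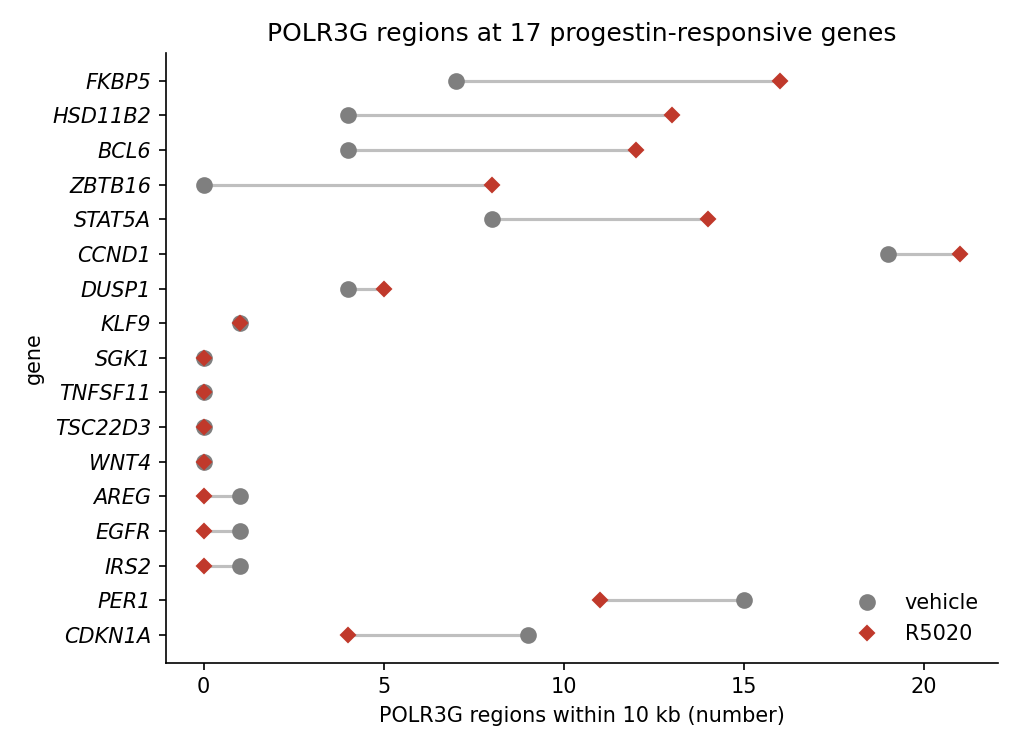
Number of POLR3G regions within 10 kb (x axis) at each of 17 progestin-responsive genes (y axis), with grey circles for vehicle and red diamonds for R5020. ZBTB16 goes from 0 to 8 and FKBP5 from 7 to 16, while CDKN1A goes from 9 to 4.

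Whole loci differed in both directions. In 1-Mb bins with at least 20 regions in either list, 429 of 554 had fewer regions with R5020 and 117 had more. The bin with the third largest excess with R5020, chr10:77000001-78000000, went from 67 to 139 regions and from 31.2 to 70.2 kb. Its protein-coding genes include KCNMA1, a potassium channel gene, which had 5 and 30 regions, and DLG5, a scaffold gene of the cell cortex, which had 54 and 95. At KCNMA1 PR regions numbered 3 with vehicle and 134 with R5020, and H3K27Ac regions 63 and 141. The bins with the largest excesses, chr9:137000001-138000000 (302 and 397 regions) and chr8:143000001-144000000 (338 and 431), had less sequence under regions with R5020. There 370 kb became 273 kb and 557 kb became 408 kb, so more but narrower regions were called.

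The largest deficits with R5020 were in chr17:50000001-51000000 (359 and 212 regions), chr19:1-1000000 (284 and 149) and chr9:128000001-129000000 (458 and 325). Length under regions was also smaller in all 3. Among single genes, picked after their values were seen, ANKRD11, a chromatin regulator gene, had 68 and 117 regions over 26.5 and 47.2 kb. CELSR1, a cadherin gene of planar cell polarity, had 69 and 108, and ITPKB, an inositol kinase gene, 27 and 65. PR regions numbered 2 and 95 at ANKRD11 and 3 and 48 at ITPKB. In the other direction, RARA, which encodes a retinoic acid receptor, had 44 and 15 regions over 35.8 and 6.12 kb. ERBB2, which encodes the receptor HER2, had 40 and 15, and SLC12A7, a potassium-chloride cotransporter gene, 68 and 26. PR regions numbered 5 and 22 at RARA and 1 and 8 at ERBB2, so at these 4 genes, of either direction, PR regions were more numerous with R5020. Over the genome, 167221 of the 173115 PR regions of R5020 cells had no vehicle PR region, and 559 PR regions were of vehicle alone. More PR regions with R5020 are thus not particular to these genes or to KCNMA1.

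By chromosome, the log2 ratio of region numbers was lowest on chromosome 19, at -0.72 (95% counting interval -0.78 to -0.66), and on chromosome 18, at -0.66 from 147 and 93 regions. It was 0.03 on chromosome 8, -0.08 on chromosome 4 and -0.15 on chromosome 13, and the intervals of these 3 included 0.

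**Figure D5:**
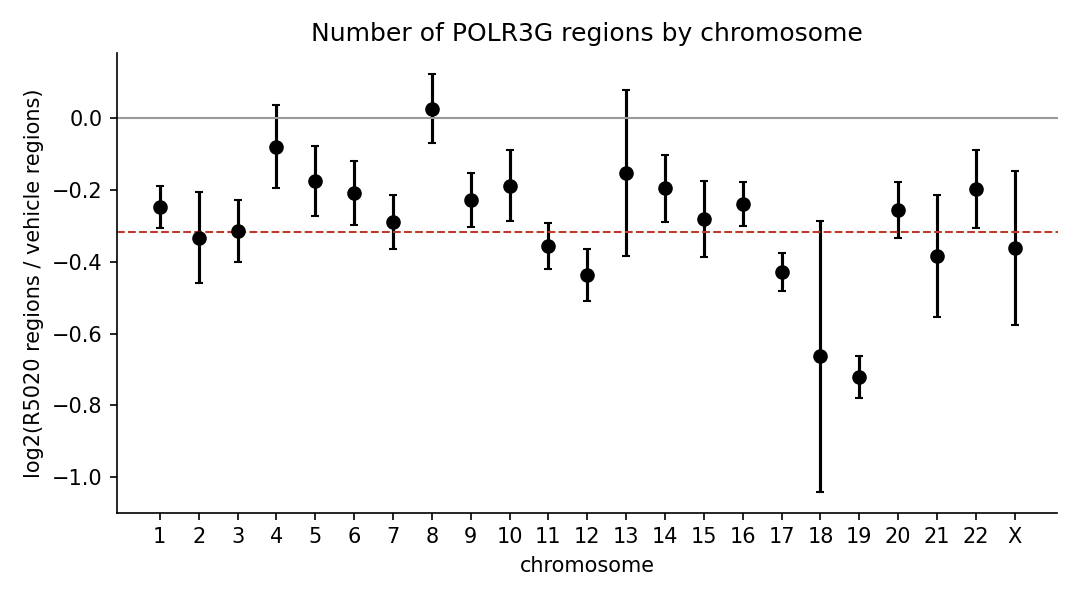
The log2 ratio of the number of POLR3G regions, R5020 over vehicle (y axis), for each chromosome (x axis), with 95% counting intervals. The red dashed line marks the ratio over all chromosomes, -0.32, and chromosome 19 stands below it at -0.72.

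The 5 strongest regions of each list with none of the other list within 1 kb were examined singly. With vehicle they were chr3:193711674-193712805 (-log10 q 16.1), chr17:39176934-39178607 in CACNB1 (15.2), chr16:82197482-82198195 (14.9), chr18:62715007-62715659 over the start site of PHLPP1 (14.7) and chr3:12810093-12810690 in CAND2 (14.5). All 5 overlapped H3K27Ac of both treatments and PR of R5020 cells. With R5020 they were chr5:181475880-181476118 (14.9), chr16:494836-495038 in RAB11FIP3 (14.1), chr1:143799987-143800214 over TRV-CAC8-1 (13.9), chr9:129181725-129182110 near IER5L (12.4) and chr10:48012104-48012779 (11.8). The first 2 of these, 239 and 203 bp wide, overlapped no region of any other antibody, and the last 2 overlapped H3K27Ac and PR of R5020 cells.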

How the data were processed

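ChIP-seq of T47D cells with a POLR3G antibody was represented by 1 peak list per treatment, for 3 libraries each, among 16 such lists and 54 samples. Per the submitters' processing notes, cutadapt, Bowtie2, MACS2 and hg38 were used. Their versions, settings, controls and the way replicates were combined are not given in the sources used here. For each region the authors deposited a fold ratio (signal over background), the -log10 of a p-value and of a q-value, a score (10 times the -log10 q), and a summit.

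Regions on chromosomes 1 to 22 and X were read in Python 3.11.15 with pandas 2.3.3. Regions elsewhere (79 with vehicle, 66 with R5020) were left out. Overlap needed 1 bp. Gene positions and promoters came from RefSeq (GRCh38.p14), with 421 tRNA and 19817 protein-coding genes. Gene spans carry no strand, so gene ends were used. Matching distances were 200 bp for tRNA genes and 1 kb for gene ends. Samples were grouped by title. No test was possible with 1 list per group, so 95% Wilson, Newcombe and counting intervals are given. On simulated data the overlap step recovered 2000 of 2000 planted overlaps.

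Named regions were the 3 of highest -log10 q in both lists, the 5 of highest -log10 q with none of the other list within 1 kb, and the 3 bins of largest excess each way. Members, gene lists and rules were chosen with earlier results of these data known. Values at the highest PR regions and most changed genes were added after seeing the data. Alternatives were stricter thresholds, equal numbers, other overlap rules and other distances.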

Additional observations from a re-analysis of the deposited data

How the results depend on the processing

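Over 11 results 58 alternative values were computed. Of these, 15 stayed within the main interval or within 1.5 times the main count, 43 moved further and 0 turned. The shared parts of the lists are shares and not differences, so their values could not turn. Among the compared differences none changed direction. No paired analysis was possible because each treatment has 1 list that carries no replicate number, and for the same reason no replicate could be left out.

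With a -log10 q of at least 5 the log2 ratio of region numbers was -0.49, and 62.4% of R5020 regions were shared. The differences were 19.1 points for H3K27Ac, 5.08 points for PR, -7 tRNA genes, 7.80 points at the top 1000 and 0.748 points at the top decile of PR regions, and 2 regions at progestin-responsive genes. With a fold of at least 3 the log2 ratio was -0.18, the shared parts 38.8% (vehicle) and 51.1% (R5020), and the differences 25.0 points (H3K27Ac), 6.06 points (PR), 27.0 points (gene ends), -8 tRNA genes, 14.9 points (top 1000), 2.82 points (top decile) and 12 regions at progestin-responsive genes. With equal numbers of regions, which fixes the ratio of numbers, the shared parts were 43.6% and 52.4%, and the differences 6.06 points (PR), 23.8 points (gene ends), -6 tRNA genes, -746 protein-coding genes and 6.25 points (top decile).

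Requiring 50% of both regions gave shared parts of 14.1% and 17.6%, and differences of 8.10 points (H3K27Ac), 0.882 points (PR), 21.4 points (gene ends), 5.30 points (top 1000) and 1.19 points (top decile). Requiring a summit inside the other region gave 33.4% and 48.7%, and 23.8 points (gene ends). Counting regions within 1 kb as present gave 61.8% and 78.4%, 10.1 points (PR) and 20.7 points (gene ends). At 5 kb from a gene end the difference was 20.4 points. Alternatives chosen after seeing the data were the summit position alone, with 23.6 points (H3K27Ac) and 5.02 points (top decile), and start sites in place of gene ends, with 18.2 points. The cause of these shifts was not tested. The lists hold no depth or control, so more or fewer regions cannot be told apart from deeper or shallower libraries.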

Other observations

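If the caller computed fold and p-value from a pileup and a local background in MACS2's usual way, both can be recovered from the deposited values. Pileups could be recovered for 100% of the regions of both POLR3G lists. The lowest pileup of a called region was 16 in both lists, and the median 25.0 in both. The lowest recovered background, taken as the genome-wide one, was 6.51 with vehicle and 6.14 with R5020, a ratio of 0.942. It stood at 25.8% of vehicle regions and 22.4% of R5020 regions. Median pileups were 23.0 at vehicle-only and 23.0 at R5020-only regions.

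The widest POLR3G regions of both lists lay in TRPS1, a GATA-type repressor gene of the luminal breast, on chromosome 8. The widest vehicle region there spanned 67575 bp, at chr8:115408489-115476063, with a fold of 5.57. The widest R5020 region spanned 69944 bp and was its neighbour, at chr8:115476317-115546260, with a fold of 5.28. An R5020 region of 67471 bp covered the first place.

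POLR3G was also counted at POLR3GL regions, each list of which comes from its own treatment. At the 603 POLR3GL regions of R5020 cells POLR3G was present at 37.3% with vehicle (95% Wilson interval 33.5 to 41.2) and 42.5% with R5020 (38.6 to 46.4). At the 1104 POLR3GL regions of vehicle cells it was present at 25.9% (23.4 to 28.6) and 23.4% (21.0 to 26.0). Each pair of shares was counted at the same POLR3GL regions, so these separate intervals do not measure the difference. At the POLR3GL regions of R5020 cells, 53 had POLR3G with R5020 alone and 22 with vehicle alone. At those of vehicle cells, 26 had it with R5020 alone and 54 with vehicle alone.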
